A study of Mus musculus with 7 samples.

Results

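Chemokine ligand genes were taken by symbol: every protein-coding mouse gene named Ccl, Cxcl or Cx3cl with a number and an optional letter. The rule gave 38 genes, of which 37 had a place on chromosomes 1 to 19 or X of the GRCm38 annotation, among 21523 protein-coding genes in all. The other one, Ccl21c, is recorded ahead of the assembled part of chromosome 4 and was not analysed here. Chromatin around these genes was compared between CEBPA/CSF3R leukemia cells treated with GSK-LSD1 at 4 nM for 48 h and the same cells given DMSO, the solvent control, for 48 h. GSK-LSD1 is an inhibitor of the histone demethylase LSD1. Both groups share the BALB/c background, the bone marrow source, the retroviral expression of mutant CSF3R (a cytokine receptor) and mutant CEBPA (a transcription factor), and culture in IMDM with serum. The sources used here do not give the promoter of the retroviral constructs, nor whether the cells are 1 clone or a pool.

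Chromatin immunoprecipitation was done in each treatment for H3K4me1, typical of enhancers, H3K4me3, typical of promoters, and H3K27Ac, typical of active elements, with 1 library per mark and treatment and 1 input. The authors combined the 3 marks into 1 segmentation per treatment, in which every 200 bp bin has 1 of 6 states, E1 to E6. With 1 segmentation per treatment there is no replicate error, and no test of treatment was possible. Intervals are 95% Wilson intervals over bins and cover counting error only, and sequencing depth is unknown. The sources used here do not say which marks make up a state, so states are named by their position. E3 covered 70.1% of the genome in GSK-LSD1 and 73.3% in DMSO and was taken as background; the other states are called marked. Relative to its genome share, E5 was enriched 10.1-fold at ends of protein-coding genes in GSK-LSD1 and 13.4-fold in DMSO, and E6 was enriched 7.88-fold in GSK-LSD1 and 9.5-fold in DMSO; the pair is called transcription start site (TSS) type. E1 and E6 were the states that covered more of the whole genome in GSK-LSD1, at 9.78 and 9.58 times their DMSO area. The same number may cover different marks in the 2 treatments, and because the samples are bulk, fewer cells carrying a mark and less mark per cell cannot be told apart. Of 10 markers of blood cells and myeloid progenitors, 8 had a TSS-type gene end in GSK-LSD1 and 7 in DMSO. In both treatments such an end was present at 1 of 6 B and T cell markers, 1 of 3 erythroid, 1 of 5 stromal and endothelial and 2 of 3 epithelial markers, and the stromal marker Col1a2 had no marked chromatin within 20 kb in either. Summed TSS-type area was higher in GSK-LSD1 in each of these 5 lists, for example 129.0 kb in GSK-LSD1 and 69.4 kb in DMSO for the myeloid list and 10.2 kb in GSK-LSD1 and 4.0 kb in DMSO for the stromal one. These sums add the window of each gene, so a bin in the windows of several listed genes counts more than once. The part of other cell types in the results below was not tested.

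Chemokines are small secreted or membrane-bound proteins that guide leukocytes by binding G protein-coupled receptors. CXC ligands with a glutamate-leucine-arginine (ELR) motif attract neutrophils through CXCR2, the macrophage inflammatory protein (MIP) type CC ligands attract monocytes and other leukocytes, and a homeostatic set places lymphocytes and progenitors in their tissues. Granulocytes and monocytes themselves make many of the inflammatory ligands, whose genes lie side by side in clusters on chromosomes 5 and 11 and are known targets of NF-kappaB.

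The first question was whether TSS-type chromatin around the ligand genes differed after LSD1 inhibition. In windows of 20 kb around the ends, 22 of the 37 genes had more TSS-type chromatin in GSK-LSD1, 1 had less (Cxcl12, the marrow ligand of CXCR4) and 14 were equal, 13 of them with none in either treatment. More TSS-type area in GSK-LSD1 was found for 66.4% of all protein-coding genes and less for 4.32%, so the count of ligand genes was near the background. The median difference was 1 kb over the ligand genes and 1.4 kb over all protein-coding genes. The differences were unequal among the members. The 5 ELR-type genes (Cxcl1, Cxcl2, Cxcl3, Cxcl5 and Cxcl15) differed by a median of 8.4 kb, with a range of 5.4 to 15.2 kb, and the 5 MIP-type genes (Ccl3, Ccl4, Ccl5, Ccl6 and Ccl9) by a median of 6.2 kb, with a range of 3.6 to 17.0 kb. The 6 genes of the group around Ccl2 differed by 0 to 1.6 kb, and the median of the 11 homeostatic genes was 0 kb.

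**Figure D1:**
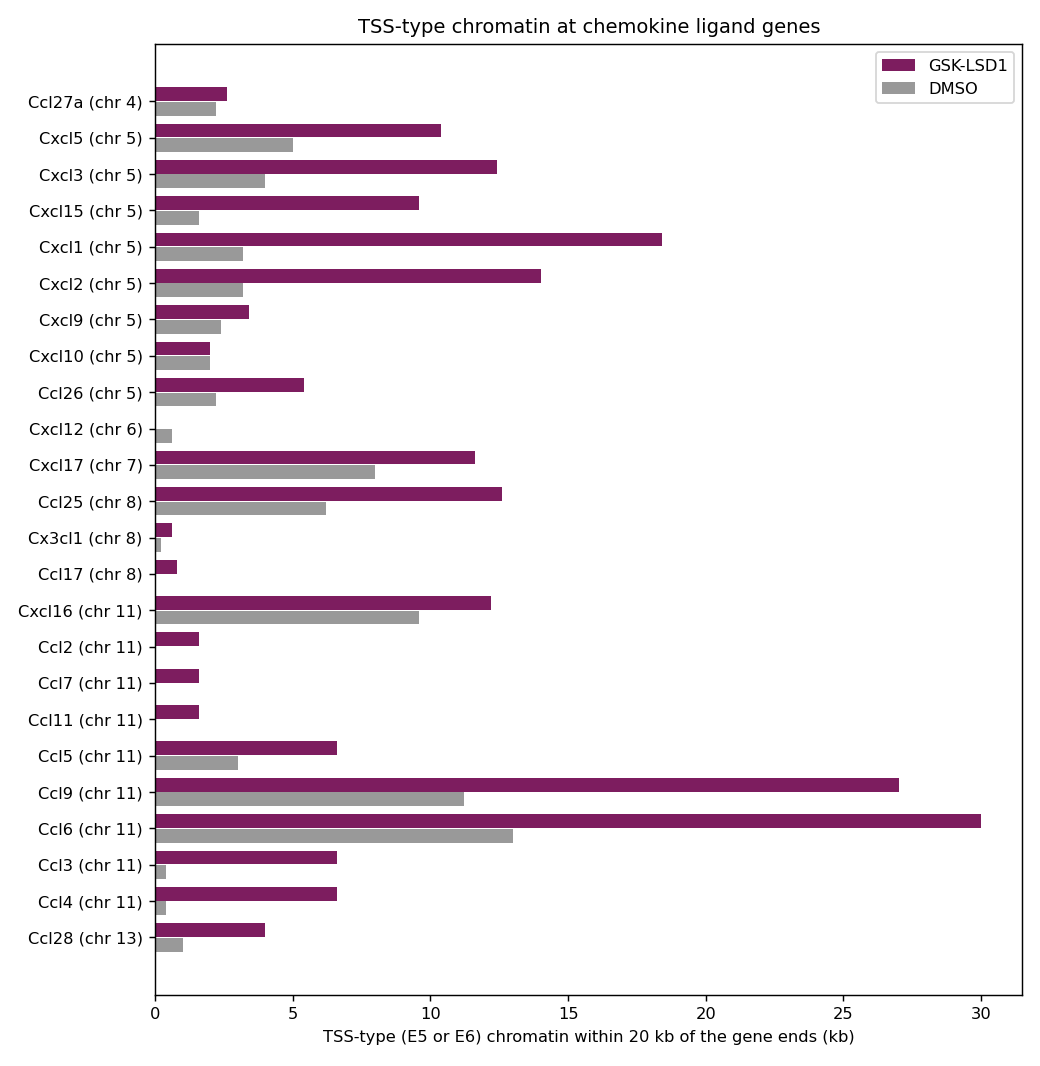
TSS-type (E5 or E6) chromatin within 20 kb of the gene ends, in kb, for the 24 ligand genes with any in either treatment; the upper bar of each pair is GSK-LSD1 and the lower is DMSO. Ccl6 and Ccl9 have the longest bars in both treatments, Cxcl1 has 18.4 kb in GSK-LSD1 against 3.2 kb in DMSO, and Cxcl12 is the gene with a bar in DMSO alone.

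Because neighbouring windows overlap, the windows were merged into 24 stretches of 1398 kb in all, so that each bin counted once. TSS-type states took 9.8% of these bins in GSK-LSD1 (interval 9.13 to 10.5), or 137.0 kb, and 4.32% in DMSO (3.87 to 4.82), or 60.4 kb, a ratio of 2.27. Around all protein-coding genes the shares were 9.13% in GSK-LSD1 and 5.92% in DMSO, a ratio of 1.54. Of the 76.6 kb difference, 71.5% came from the 5 windows that hold an ELR-type or MIP-type gene. There TSS-type states took 26.8% in GSK-LSD1 and 8.63% in DMSO, a ratio of 3.11, whereas in the other 19 windows they took 5.12% in GSK-LSD1 and 3.14% in DMSO, a ratio of 1.63. This split of the windows was chosen after the values had been seen. The direction rests on E6: the ligand windows held 103.4 kb of E6 in GSK-LSD1 and 4.2 kb in DMSO, but 33.6 kb of E5 in GSK-LSD1 and 56.2 kb in DMSO. With E4 added to E5 and E6, the shares were 13.8% in GSK-LSD1 and 13.7% in DMSO. The higher ratio than around all protein-coding genes rests on E6 as well. The GSK-LSD1 to DMSO ratio of E6 was 24.6 in the ligand windows and 9.67 around all protein-coding genes. For E5 it was lower in the ligand windows, at 0.598 against 0.797, and so it was for E4, at 0.421 against 0.877.

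**Figure D2:**
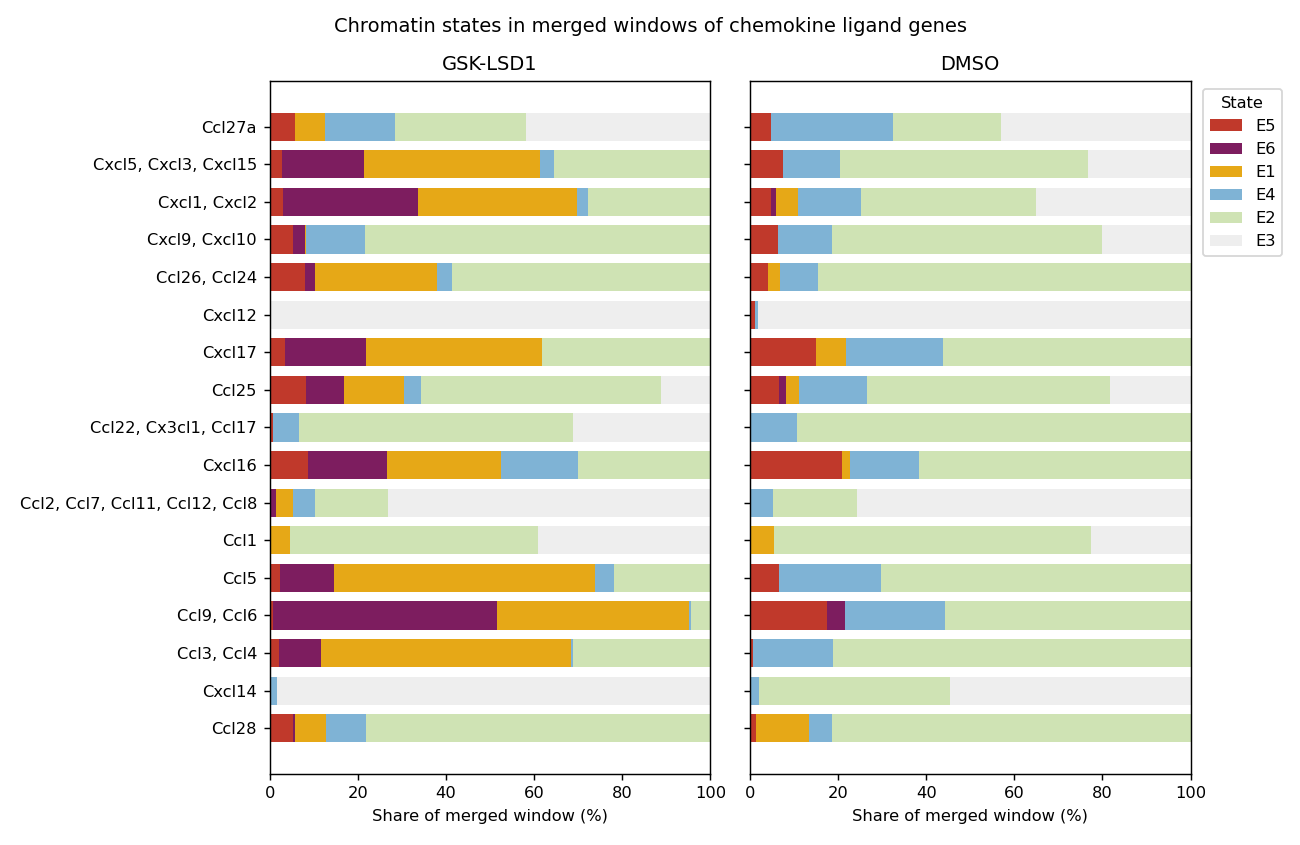
Share of each merged window in each state, in percent, for the windows with a marked bin in either treatment; GSK-LSD1 is on the left, DMSO on the right, and labels name the ligand genes in a window. The windows of Ccl9 and Ccl6, of Cxcl1 and Cxcl2, and of Ccl3 and Ccl4 are mostly E1 and E6 in GSK-LSD1 and mostly E2 and E4 in DMSO, and the window of Ccl22 shows E3 in GSK-LSD1 alone.

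The neutrophil-attracting ELR-type genes occupy one cluster on chromosome 5. Between 20 kb outside Cxcl5 and 20 kb outside Cxcl2 (chr5:90739201-90926000), TSS-type chromatin covered 39.2 kb in GSK-LSD1 and 9.6 kb in DMSO, and E1 covered 75.6 kb in GSK-LSD1 and 4.6 kb in DMSO. Background took 0 kb of this span in GSK-LSD1 and 53.4 kb in DMSO, so that all of it was marked in GSK-LSD1 and 71.4% in DMSO. The cluster thus differed both in the kind of marked chromatin and in how much was marked.

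Cxcl1 (chr5:90891245-90893121, plus strand), a main neutrophil attractant of the mouse, had 18.4 kb of TSS-type chromatin in GSK-LSD1 and 3.2 kb in DMSO. The difference of 15.2 kb was the third largest among the ligand genes, and 0.39% of all protein-coding genes had a larger one. In GSK-LSD1 an E6 block of 9.4 kb (chr5:90879401-90888800) lay upstream of the gene and a second of 3 kb (chr5:90890001-90893000) covered its start, whereas in DMSO the start carried 0.6 kb of E5 (chr5:90891001-90891600). Within the upstream stretch DMSO already had 0.6 kb of E6 (chr5:90885401-90886000), with E1 of 2.2 kb and 0.6 kb on its sides. The gene body was TSS-type over 90.0% of its bins in GSK-LSD1 and 20.0% in DMSO. Cxcl2 (chr5:90903899-90905938, plus strand), the closest neighbour of Cxcl1 and also a CXCR2 ligand, had 14 kb of TSS-type chromatin in GSK-LSD1 and 3.2 kb in DMSO. Its start was E5 in both treatments, while the whole body was TSS-type in GSK-LSD1 and 27.3% of it in DMSO.

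Cxcl3 (chr5:90786101-90788093, plus strand), a further CXCR2 ligand, was 1 of 3 ligand genes whose TSS-type gene end was seen in GSK-LSD1 only; the background for such ends is 4.14% of protein-coding genes. Both its ends were E6 in GSK-LSD1, within a block of 7.6 kb (chr5:90785801-90793400), and E4 and E2 in DMSO. The whole body was TSS-type in GSK-LSD1 and none of it in DMSO, and the window held 12.4 kb in GSK-LSD1 and 4 kb in DMSO. When any bin within 1 kb of an end was counted, Cxcl3 had a TSS-type end in DMSO too. Cxcl5, whose product is another CXCR2 ligand, had 10.4 kb in GSK-LSD1 and 5 kb in DMSO. Cxcl15, known from mouse lung epithelium, had no TSS-type end in either treatment; its window held 9.6 kb in GSK-LSD1 and 1.6 kb in DMSO, and it shares bins with the Cxcl3 window.

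The promoters of Cxcl1, Cxcl2 and Cxcl3 are shown because their start bins are where the states can be set beside sequence. They come from the RefSeq promoter table (GRCm38.p6, 250 bases before to 50 after the start), which matched 27 of the 37 genes. Capitals mark matches to GGNNTTTCC, a part of the NF-kappaB consensus, or to TATAAA, on either strand. Cxcl1 is chr5:90890995-90891294, Cxcl2 is chr5:90903649-90903948 and Cxcl3 is chr5:90785851-90786150, all on the plus strand.
Cxcl1: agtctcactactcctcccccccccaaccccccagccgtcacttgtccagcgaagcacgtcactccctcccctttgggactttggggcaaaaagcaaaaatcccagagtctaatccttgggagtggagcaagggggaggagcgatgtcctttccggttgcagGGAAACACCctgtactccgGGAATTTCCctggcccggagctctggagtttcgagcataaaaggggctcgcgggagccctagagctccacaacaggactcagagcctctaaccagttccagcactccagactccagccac
Cxcl2: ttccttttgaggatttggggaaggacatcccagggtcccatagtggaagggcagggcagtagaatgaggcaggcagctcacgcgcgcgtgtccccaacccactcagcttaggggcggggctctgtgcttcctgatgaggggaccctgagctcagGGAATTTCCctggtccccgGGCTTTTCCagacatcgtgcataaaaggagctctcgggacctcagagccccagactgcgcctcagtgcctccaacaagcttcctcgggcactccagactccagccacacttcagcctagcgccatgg
Cxcl3: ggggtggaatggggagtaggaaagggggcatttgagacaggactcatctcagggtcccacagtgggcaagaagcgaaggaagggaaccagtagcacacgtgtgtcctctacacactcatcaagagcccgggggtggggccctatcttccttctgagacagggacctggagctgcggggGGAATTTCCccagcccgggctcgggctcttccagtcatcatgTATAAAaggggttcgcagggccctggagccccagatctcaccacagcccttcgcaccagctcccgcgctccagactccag
In GSK-LSD1 the bins under these promoters were E6 for Cxcl1 and Cxcl3 and E5 for Cxcl2, and in DMSO they were E4 and E5 for Cxcl1, E5 for Cxcl2 and E4 for Cxcl3. Matches to GGNNTTTCC began at -89 and -70 in Cxcl1, at -96 and -77 in Cxcl2 and at -72 in Cxcl3, counted from the start, and Cxcl3 also held TATAAA at -30. Of the other ELR-type genes, Cxcl5 had no entry in the promoter table. The Cxcl15 promoter, not printed, held TATAAA at -27 and no GGNNTTTCC, and its bins were E1 in GSK-LSD1 and E2 in DMSO. Over all members, 7 of 27 promoters (25.9%) held this motif (Ccl9, Ccl20, Cxcl1, Cxcl2, Cxcl3, Cxcl9 and Cxcl10), against 5.7% of 17274 promoters. Cxcl1, Cxcl2 and Cxcl3 lie in the same cluster and share short stretches of promoter sequence, so their matches may not be separate observations. Carrying the motif did not go with a TSS-type start in every case: Ccl20, the ligand of CCR6, holds it and was background in both treatments.

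The MIP-type genes lie together on chromosome 11, between Ccl5 and Ccl4 (chr11:83505601-83684800 with 20 kb either side). TSS-type chromatin covered 49.0 kb of this span in GSK-LSD1 and 17.2 kb in DMSO. E1 covered 97.4 kb in GSK-LSD1 and 0 kb in DMSO, and E2 covered 30.2 kb in GSK-LSD1 and 124.0 kb in DMSO. Unlike the ELR-type cluster, the span was marked throughout in both treatments, so the difference was in the kind of state alone.

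Ccl6 (chr11:83587886-83593087, minus strand) and Ccl9 (chr11:83572917-83578636, minus strand), mouse CC ligands of CCR1 made by myeloid cells, had the largest TSS-type areas of all ligand genes in both treatments. Ccl6 had 30.0 kb in GSK-LSD1 and 13.0 kb in DMSO. Ccl9 had 27 kb in GSK-LSD1 and 11.2 kb in DMSO. Larger differences than those of Ccl6 and Ccl9 were found for 0.18% and 0.32% of protein-coding genes, although both windows share most of their bins and are not separate observations. In GSK-LSD1, E6 formed blocks of 11.8 kb over Ccl9 (chr11:83568201-83580000) and of 13.6 kb over the start of Ccl6 (chr11:83588201-83601800). In DMSO the same stretches were broken into E4, E5 and E6, with E2 at the edges of the Ccl6 stretch, for example E5 at chr11:83575001-83577400 and E6 at chr11:83577401-83578800 within Ccl9. Of the E6 area in this merged window in GSK-LSD1, 12.4 kb was E4 in DMSO, 10.6 kb E5, 5.4 kb E2 and 2.4 kb E6. The E1 and E6 area of the Ccl6 window filled all of its 45.4 kb in GSK-LSD1 and 2.4 kb in DMSO, the largest such difference among the ligand genes.

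The promoters of Ccl9 (chr11:83578587-83578886) and Ccl6 (chr11:83593038-83593337), both on the minus strand, are given as the starts that were TSS-type in both treatments, and that of Ccl3 (chr11:83649329-83649628, minus strand) as one that was TSS-type in GSK-LSD1 only. Capitals mark the same motifs as above.
Ccl9: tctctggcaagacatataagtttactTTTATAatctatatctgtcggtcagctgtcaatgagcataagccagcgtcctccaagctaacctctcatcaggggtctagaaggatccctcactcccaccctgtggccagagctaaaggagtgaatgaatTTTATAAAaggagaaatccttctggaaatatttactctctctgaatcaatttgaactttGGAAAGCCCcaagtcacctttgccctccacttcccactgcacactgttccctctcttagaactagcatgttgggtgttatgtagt
Ccl6: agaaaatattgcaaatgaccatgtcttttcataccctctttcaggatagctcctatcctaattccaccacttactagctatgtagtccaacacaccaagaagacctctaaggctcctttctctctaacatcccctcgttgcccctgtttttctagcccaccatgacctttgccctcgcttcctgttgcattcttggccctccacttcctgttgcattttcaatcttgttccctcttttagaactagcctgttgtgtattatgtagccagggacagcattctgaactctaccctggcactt
Ccl3: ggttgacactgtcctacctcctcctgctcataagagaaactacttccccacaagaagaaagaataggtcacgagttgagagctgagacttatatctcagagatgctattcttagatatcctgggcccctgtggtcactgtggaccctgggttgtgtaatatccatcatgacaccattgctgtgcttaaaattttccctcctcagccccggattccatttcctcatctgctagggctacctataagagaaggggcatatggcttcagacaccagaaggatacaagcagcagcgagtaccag
Ccl9 held GGNNTTTCC at -35 and TATAAA at -224, -94 and -92, the last pair overlapping each other, and neither motif was found in the printed windows of Ccl6 and Ccl3. The bins under the Ccl3 promoter were E6 and E1 in GSK-LSD1 and E2 in DMSO.

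Ccl3 (chr11:83647843-83649378, minus strand), which encodes MIP-1 alpha, a ligand of CCR1, and Ccl4 (chr11:83648624-83664683 in the annotation), which encodes MIP-1 beta, an attractant of monocytes and T cells, were the other genes with a TSS-type end in GSK-LSD1 only. Their annotated spans overlap, and both windows counted the same TSS-type bins, 6.6 kb in GSK-LSD1 and 0.4 kb in DMSO. In GSK-LSD1 a block of E5 (chr11:83648001-83649200) lay over Ccl3 and one of 4 kb of E6 (chr11:83638401-83642400) lay beyond its 3′ end; E1 ran for 14.8 kb from the start of Ccl3 across Ccl4 (chr11:83649401-83664200). In DMSO the Ccl3 body was E2 and the single TSS-type segment was 0.4 kb of E5 (chr11:83640601-83641000). The body of Ccl3 was TSS-type over 87.5% of its bins in GSK-LSD1 and 0% in DMSO. For Ccl4 the reading depends on the annotation, because its gene end falls inside Ccl3. Ccl5, which encodes the T cell attractant RANTES, had 6.6 kb in GSK-LSD1 and 3 kb in DMSO, no TSS-type end in either treatment, and 32.2 kb of E1 and E6 in GSK-LSD1 against 0 kb in DMSO.

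**Figure D3:**
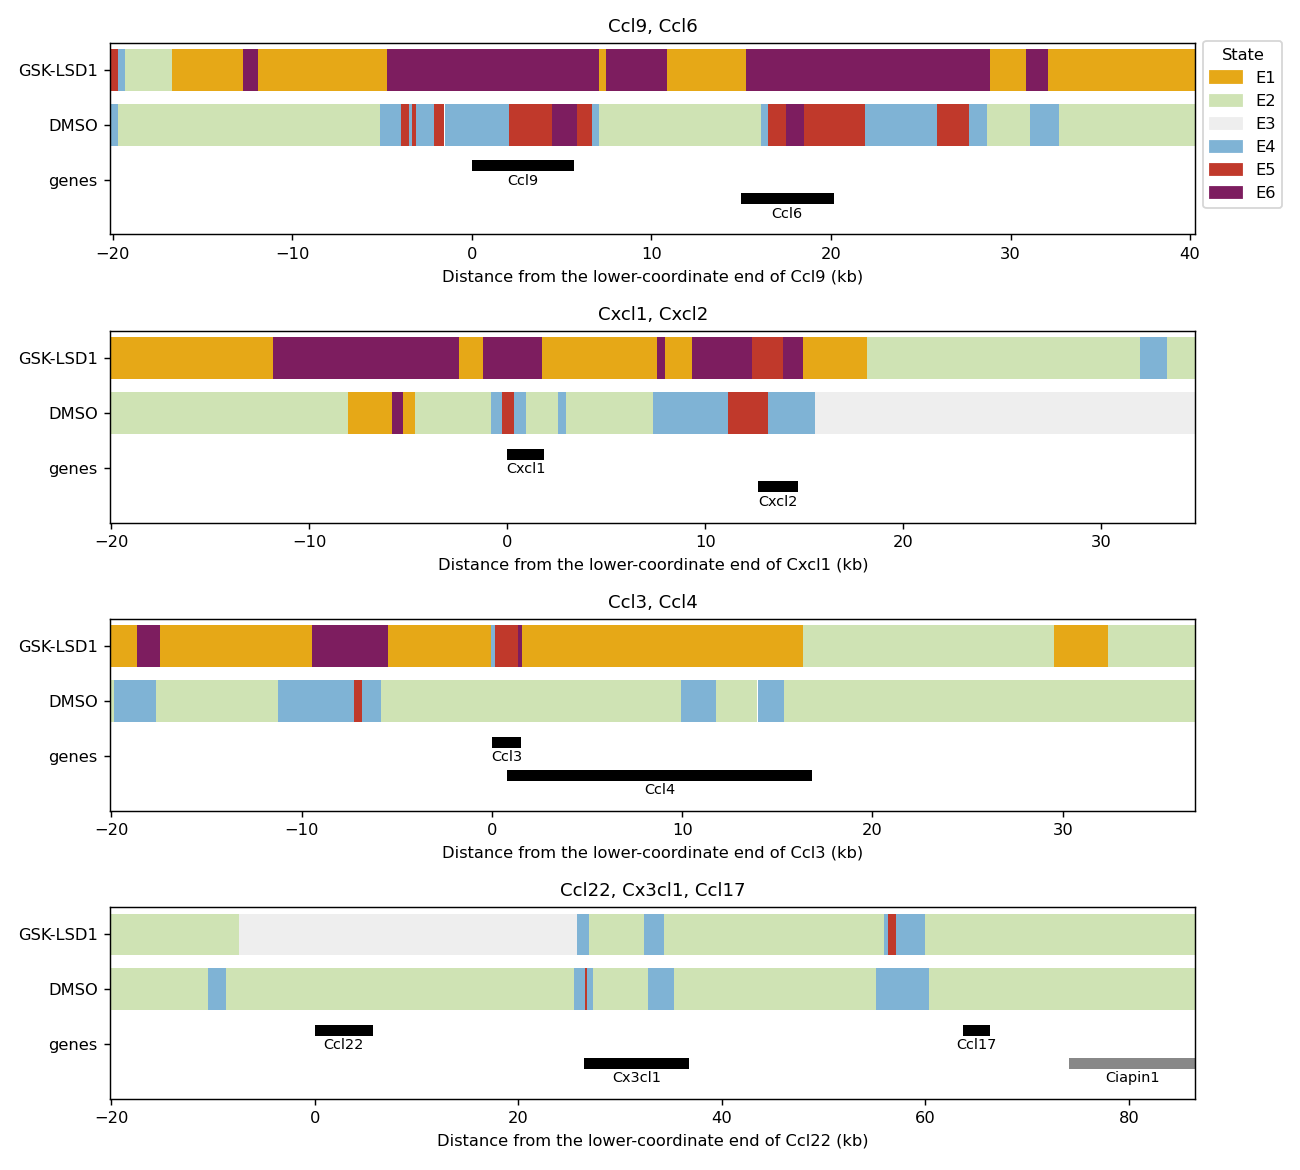
States along 4 merged windows, as distance in kb from the lower-coordinate end of the first named gene; the upper track is GSK-LSD1, the track under it is DMSO, and black bars are ligand genes, with a grey bar for the neighbour Ciapin1. E6 blocks of 11.8 and 13.6 kb cover Ccl9 and the Ccl6 start in GSK-LSD1, an E6 block of 9.4 kb precedes Cxcl1, and Ccl22 lies in 33.2 kb of E3 in GSK-LSD1 where DMSO shows E2.

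Gene ends showed the same division among the members. Of the 74 ends of the 37 genes, 14 lay in a TSS-type bin in GSK-LSD1 and 8 in DMSO. E6 held 11 ends in GSK-LSD1 and 1 in DMSO, and E5 held 3 in GSK-LSD1 and 7 in DMSO. Within 1 kb of ligand gene ends, 17.1% of bins were TSS-type in GSK-LSD1 and 9.41% in DMSO. Around all protein-coding genes these shares were 29.0% and 24.8%. More E6 and less E5 was also the pattern within 20 kb of all protein-coding genes, at 9.67 and 0.797 times the DMSO area. By gene, 7 had a TSS-type end in both treatments (Ccl6, Ccl9, Ccl25, Cxcl1, Cxcl2, Cxcl5 and Cxcl16), 3 in GSK-LSD1 only, 1 in DMSO only (Cxcl12; background 0.99%) and 26 in neither. Over all protein-coding genes, 10973 of 21523 had such an end in both treatments and 43.9% had none in either. Of the 29 genes without such an end in DMSO, 10.3% had one in GSK-LSD1, against 8.61% of 10337 protein-coding genes, so the share of ligand genes that had one was near that of genes at large.

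Distance from the gene ends separated the ELR-type and MIP-type genes from the other members. Within 1 kb of an end of these 10 genes, 54.0% of bins were TSS-type in GSK-LSD1 and 21.9% in DMSO, and at 10 to 20 kb 13.6% were in GSK-LSD1 and 2.87% in DMSO. Around the other 27 genes, the shares were 4.0% in GSK-LSD1 and 4.95% in DMSO within 1 kb, 5.53% in GSK-LSD1 and 2.25% in DMSO at 1 to 5 kb, 3.2% in GSK-LSD1 and 1.83% in DMSO at 5 to 10 kb, and 6.25% in GSK-LSD1 and 4.03% in DMSO at 10 to 20 kb. Around all protein-coding genes they were 29.0% in GSK-LSD1 and 24.8% in DMSO within 1 kb, and 2.97% in GSK-LSD1 and 1.36% in DMSO at 10 to 20 kb. The 2 groups of members were set apart by role, with results of these data known, and the contrast between them is a description.

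**Figure D4:**
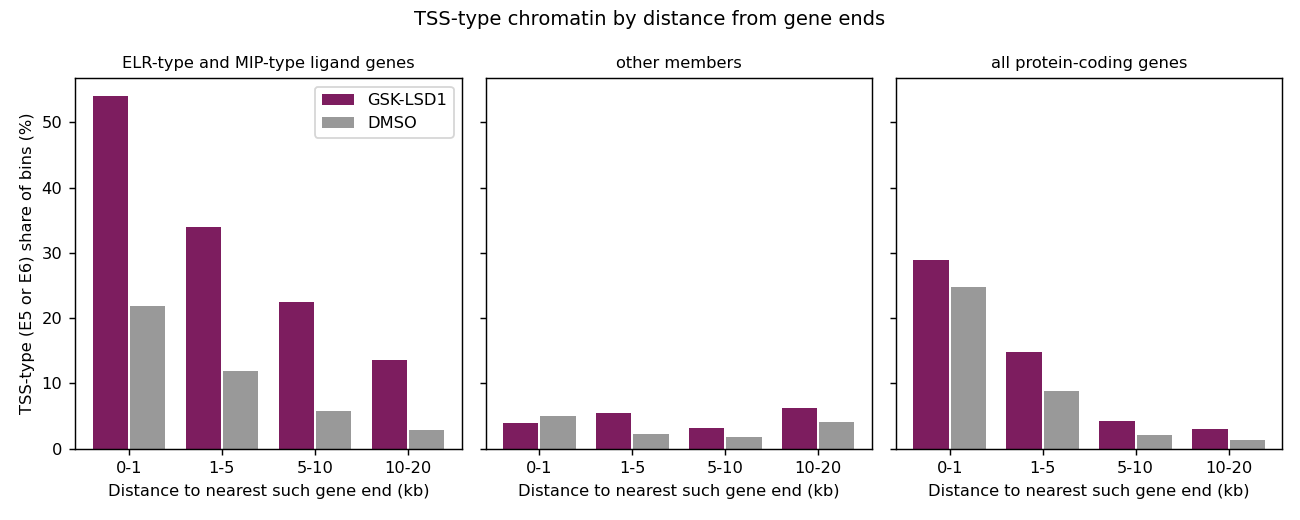
Share of bins in a TSS-type state, in percent, by distance in kb to the nearest gene end, for the ELR-type and MIP-type genes, the other ligand genes and all protein-coding genes; the left bar of each pair is GSK-LSD1 and the right bar is DMSO. In the first panel the share in GSK-LSD1 exceeds that in DMSO in every band, at 54.0% in GSK-LSD1 against 21.9% in DMSO within 1 kb, and in the second it is lower in GSK-LSD1 in the nearest band, at 4.0% in GSK-LSD1 against 4.95% in DMSO, and higher in the other 3.

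The second comparison was of E1 and E6, the states that covered more of the genome in GSK-LSD1. Of the 37 genes, 20 had more E1 and E6 area in GSK-LSD1, 2 had less and 15 had none in either treatment; the background is 59.2% higher and 0.952% lower. The genes with less were Ccl28, a mucosal ligand of CCR10, with 5.2 kb in GSK-LSD1 and 8.4 kb in DMSO, and Ccl1, the ligand of CCR8, with 2 kb in GSK-LSD1 and 2.4 kb in DMSO. The median difference was 3 kb over the ligand genes and 2.2 kb over all protein-coding genes. In the merged windows E1 and E6 together took 22.5% in GSK-LSD1 (21.6 to 23.5) and 1.85% in DMSO (1.56 to 2.19), a ratio of 12.2. Around all protein-coding genes they took 12.2% in GSK-LSD1 and 1.28% in DMSO, a ratio of 9.57. The medians by role were 37.0 kb in GSK-LSD1 and 0 kb in DMSO for the MIP-type genes, 28.8 kb in GSK-LSD1 and 0 kb in DMSO for the ELR-type genes, and 0 kb in both treatments for the homeostatic genes. E1 alone took 46.0% of the 5 windows with ELR-type or MIP-type genes in GSK-LSD1 and 0.93% in DMSO, and 6.64% in GSK-LSD1 and 1.71% in DMSO in the other 19. Over all merged windows the GSK-LSD1 to DMSO ratio of E1 was 9.79, near the 9.5 around all protein-coding genes. The ratio of E6 was 24.6, from 4.2 kb in DMSO, against 9.67, so the higher joint ratio comes from E6.

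Most of this area was marked in DMSO too: of the 211.4 kb of E1 in GSK-LSD1, 6.8 kb was background in DMSO. In the merged windows 66.9% of E5 bins of DMSO carried E6 in GSK-LSD1 and 28.8% kept E5, against 51.3% and 44.5% on the whole of chromosomes 1 to 19 and X. Of the E4 bins of DMSO, 31.8% were E6 in GSK-LSD1, 27.7% were E1 and 11.1% were E5, against 19.9%, 21.6% and 18.9% genome-wide. Of the E2 bins of DMSO, 25.3% were E1 in GSK-LSD1, against 17.0% genome-wide. Into the TSS-type states went 79.4 kb of the merged windows, and 2.8 kb left them.

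**Figure D5:**
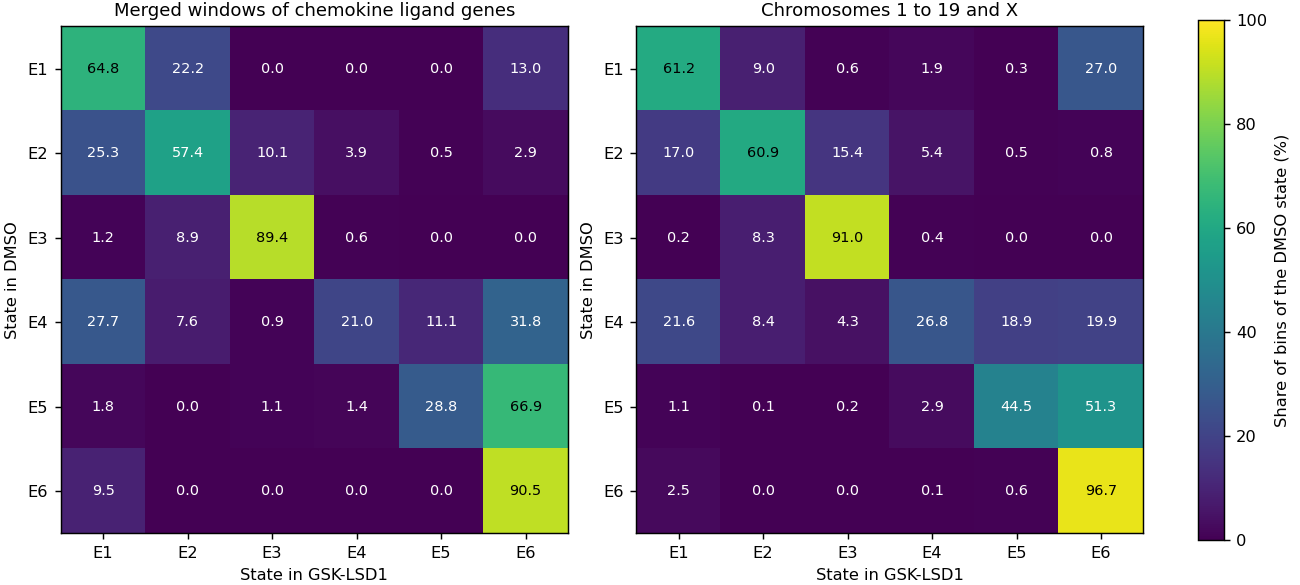
Share of the bins of each DMSO state, in percent, that had each state in GSK-LSD1, in the merged windows of the ligand genes on the left and on chromosomes 1 to 19 and X on the right; rows are DMSO states, columns are GSK-LSD1 states, and each row adds to 100. E5 bins that were E6 in GSK-LSD1 make up 66.9% on the left and 51.3% on the right, and E3 bins mostly kept their state in both panels.

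The genes around Ccl2 on chromosome 11, which encode attractants of monocytes and eosinophils, showed small differences. Between Ccl2 and Ccl1, with 20 kb either side (chr11:82015401-82200000), TSS-type chromatin covered 1.6 kb in GSK-LSD1 and 0 kb in DMSO. That one stretch of E6 lay within 20 kb of Ccl2 (the CCR2 ligand MCP-1), Ccl7 (a CCR2 ligand) and Ccl11 (eotaxin, a CCR3 ligand), so the 3 genes with more TSS-type area share a single observation. None of the 6 genes had a TSS-type end in either treatment. The Ccl7 body was E2 in GSK-LSD1 and background in DMSO, and the Ccl8 and Ccl12 windows were background throughout in both. Of this span 32.0% was marked in GSK-LSD1 and 34.1% in DMSO, whereas the MIP-type span farther along the same chromosome was wholly marked.

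The ligands of CXCR3 on chromosome 5 are induced by interferon. Cxcl9 had 3.4 kb of TSS-type chromatin in GSK-LSD1 and 2.4 kb in DMSO, and Cxcl10 had 2 kb in each. Their merged window also holds ends of Sdad1 and Art3, and its bins nearest to a ligand gene held 2 kb in both treatments. Neither Cxcl9 nor Cxcl10 had a TSS-type end in either treatment, although both their starts were E4 in GSK-LSD1, as was that of Cxcl10 in DMSO. Cxcl13, the B cell attractant that binds CXCR5, lies farther along chromosome 5 and was background in both.

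Among the homeostatic genes, Cxcl12 (chr6:117168535-117181368, plus strand) had the one loss of a TSS-type end. Its start was E3 in GSK-LSD1 and E5 in DMSO, where a segment of 0.6 kb (chr6:117168401-117169000) lay over it, and the window held 0 kb of any marked state in GSK-LSD1 and 1 kb in DMSO. The segment is 3 bins long, so the call rests on little chromatin. The promoter (chr6:117168285-117168584, plus strand) is printed as the start that was TSS-type in DMSO only, and it held neither motif.
Cxcl12: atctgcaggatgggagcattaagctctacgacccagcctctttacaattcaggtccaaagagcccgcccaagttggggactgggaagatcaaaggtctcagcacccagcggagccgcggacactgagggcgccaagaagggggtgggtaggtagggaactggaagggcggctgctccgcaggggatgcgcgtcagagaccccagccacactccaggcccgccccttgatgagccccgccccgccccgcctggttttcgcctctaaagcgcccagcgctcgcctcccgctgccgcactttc
Ccl25, the thymic and intestinal ligand of CCR9, had 12.6 kb in GSK-LSD1 and 6.2 kb in DMSO with a TSS-type start in both, but its window also holds an end of Elavl1. When only bins nearest to Ccl25 were counted, the areas were 2.8 kb in GSK-LSD1 and 1.8 kb in DMSO. In the chromosome 4 group, Ccl27a, a skin ligand of CCR10, had 2.6 kb in GSK-LSD1 and 2.2 kb in DMSO, and none of it was nearest to Ccl27a. Ccl19, Ccl21a, Ccl21b, Ccl21d and Ccl27b were background throughout in both treatments. Several of these genes have near-identical copies, between which the authors' alignment could split or drop reads, so the background call for them is uncertain. In all, 9 ligand genes (24.3%) had background alone in their windows in both treatments, against 18.9% of all protein-coding genes.

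Marked chromatin as a whole, counting every state except E3, was also compared. It was larger in GSK-LSD1 for 11 genes, smaller for 5 and equal for 21; the background is 30.0% larger and 21.1% smaller. Ccl22 (chr8:94745684-94751388, plus strand), a CCR4 ligand of dendritic cells and macrophages, had 12.6 kb of marked chromatin in GSK-LSD1 and 45.8 kb in DMSO, and 1.72% of protein-coding genes had a larger loss. A stretch of 33.2 kb around the gene (chr8:94738201-94771400) was E3 in GSK-LSD1, and nearly all of it was E2 in DMSO (chr8:94737001-94771200). The loss concerned E2, the broad state that lies little above its genome share at gene ends. Its neighbour Cx3cl1, the membrane-anchored ligand of CX3CR1, shares that stretch and had 31.2 kb in GSK-LSD1 and 50.6 kb in DMSO. The start bin of Cx3cl1 was E4 in both treatments. The bin after it, which the promoter also reaches, was E4 in GSK-LSD1 and E5 in DMSO (chr8:94772201-94772400, 0.2 kb). Ccl17, the other CCR4 ligand, lies beyond the E3 stretch and had 43.0 kb in both, with 0.8 kb of E5 in GSK-LSD1 and 0 kb in DMSO. Cxcl14, on chromosome 13, had 0.8 kb of marked chromatin in GSK-LSD1 and 22.0 kb in DMSO. Ccl1, with 26.4 kb in GSK-LSD1 and 33.6 kb in DMSO, and Cxcl12 were the remaining genes with less.

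Some windows hold ends of other genes, and so TSS-type chromatin that lies nearer to them. Cxcl17, a mucosal ligand on chromosome 7, had 11.6 kb of TSS-type chromatin in GSK-LSD1 and 8 kb in DMSO, and none of it lay nearest to a ligand gene. Cxcl16, the membrane-bound ligand of CXCR6, had 12.2 kb in GSK-LSD1 and 9.6 kb in DMSO, of which 1.8 kb in GSK-LSD1 and 1 kb in DMSO lay nearest to it. Ccl26 had 5.4 kb in GSK-LSD1 and 2.2 kb in DMSO, again with none nearest to a ligand gene, and Ccl24, a CCR3 ligand beside it, had 0 kb in both. Over all windows, bins nearest to a ligand gene held 89.0 kb of TSS-type chromatin in GSK-LSD1 and 30.0 kb in DMSO, in 1138.4 kb. In the Ccl9 and Ccl6 window and the Cxcl1 and Cxcl2 window the values were 31.2 and 18.4 kb in GSK-LSD1 and 13.0 and 3.2 kb in DMSO. The window of Cxcl5, Cxcl3 and Cxcl15, which also holds ends of Pf4 and Ppbp, had 13.2 kb in GSK-LSD1 and 3.8 kb in DMSO in such bins.

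Other genes of the pathway were taken from lists. Of 23 chemokine receptor genes, 19 had more TSS-type area in GSK-LSD1, 1 had less (Ackr2, a scavenging receptor, at 1.2 kb in GSK-LSD1 and 2.2 kb in DMSO) and 3 were equal, with a median difference of 3 kb; over all protein-coding genes 66.4% had more, 4.32% had less and the median was 1.4 kb. The receptors of the ligands above had 7.4 kb in GSK-LSD1 and 0 kb in DMSO at Cxcr2, and 16.6 kb in GSK-LSD1 and 6.2 kb in DMSO at Ccr1. Cxcr2 and Ccr4 had a TSS-type end in GSK-LSD1 only. At Cxcr4, the receptor of Cxcl12, the area was 12.4 kb in GSK-LSD1 and 5 kb in DMSO. All 12 regulators listed, among them Nfkb1, Rela and Nfkbia of the NF-kappaB pathway and Stat3, had more TSS-type area in GSK-LSD1, with a median difference of 4.3 kb, against the same 66.4% and 1.4 kb over all protein-coding genes.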

How the data were processed

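The study measured H3K4me1, H3K4me3 and H3K27Ac by chromatin immunoprecipitation and sequencing in GSK-LSD1 and DMSO cells, as 6 immunoprecipitated libraries and 1 input. Per the submitters' processing notes, the authors used Bowtie and the build mm10 (GRCm38). The sources used here do not give versions, the segmentation tool, its thresholds, whether one model served both treatments, or how the input was used. The deposited values are state labels on a 200 bp grid, 1 segmentation per treatment, per the labels, so no count model applies and depth is unknown. A state is a call and not a signal level. Read number, or a mark of intermediate strength, may change which state is called, and how far it does so here is unknown.

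Segments were expanded to bins on chromosomes 1 to 19 and X (Python 3.11.15, NumPy 2.4.6, pandas 2.3.3, SciPy 1.17.1, Matplotlib 3.10.9). Gene positions came from the RefSeq table of GRCm38, using 21523 protein-coding genes; 108 records before 3 Mb of a chromosome, Ccl21c among them, were left out, and Cxcl11 is not protein-coding there. Gene strand was known for 27 ligand genes, so both ends were used. Windows are bins within 20 kb of either end. A check of the counting planted TSS-type bins inside windows and counted the same windows again. Its recovery was fixed in advance, it used a routine other than the one behind the member values, and it does not test the state calls.

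The members, role lists, marker lists and alternatives were chosen with earlier results of these data known. All ligand genes are accounted for; described singly are those with a TSS-type end in 1 segmentation only, the 8 largest TSS-type and 6 largest E1 and E6 differences, and the largest and smallest of each cluster, and other genes were named once their values were known. Ccl21d was added to the homeostatic list. Alternatives changed the windows, the states counted, the bins, the ends, the members and the unit.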

Additional observations from a re-analysis of the deposited data

How the results depend on the processing

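With E5 alone as TSS-type, the difference in share of the merged windows turned to -1.62 percentage points (2.40% in GSK-LSD1 and 4.02% in DMSO), against 5.48 with E5 and E6, 8 ligand genes had more area in place of 22, and 1 had an end in GSK-LSD1 only in place of 3. With E4 added, the difference was 0.03 points and 14 genes had more; this setting adds the E4 area, which was smaller in GSK-LSD1. Counting each merged window once gave 14 of 24. The TSS-type difference was 7.70 points with 5 kb windows, 6.47 with 10 kb, 4.11 with 50 kb and 6.77 without the chromosome 4 group, and the E1 and E6 difference, 20.67 points, was 25.6, 22.22, 16.56 and 25.4 in the same settings and 19.13 with bins nearest to a ligand gene only. All of these are GSK-LSD1 minus DMSO. Ends in GSK-LSD1 only numbered 2 within 1 kb of an end (Ccl3 and Ccl4, not Cxcl3) and 2 when the start alone was used (Cxcl3 and Ccl3). The other settings gave 16 to 26 genes with more TSS-type area. Shares over all protein-coding genes were taken at the main setting alone. They were 66.4% with more TSS-type area and 4.14% with an end in GSK-LSD1 only. The counts at the other settings therefore have no matching background, and whether they differ from genes at large was not tested. No replicate was left out because each mark had 1 library per treatment, and the state calls hold no depth with which to weigh them.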

Other observations

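Platelet factor genes that fall outside the symbol rule lie in the same chromosome 5 cluster as the ELR-type genes. Pf4, which encodes a CXC chemokine of platelets, had 16 kb of TSS-type chromatin within 20 kb in GSK-LSD1 and 6.4 kb in DMSO, with a TSS-type end in both. Ppbp, which encodes the precursor of a CXCR2 ligand of platelets, had 12.8 kb in GSK-LSD1 and 6.2 kb in DMSO, with no such end in either. Their windows overlap those of Cxcl5 and Cxcl3, so these values share bins with theirs. Xcl1, a ligand of XCR1 made by lymphocytes, had no TSS-type chromatin in either treatment, while 44.0 kb of its window was marked in GSK-LSD1 and 0 kb in DMSO.

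Other short motifs were counted in the promoters of 27 ligand genes, on both strands. TATAAA was found in 8 of them (29.6%) and in 13.4% of 17274 promoters, and TTGCNNAA, a form of the C/EBP site, in 5 (18.5%) and in 10.3%. TTCNNNGAA, the STAT site, was found in 2 (7.4%) and in 7.9%, and AATCACNGC, a form of the GFI1 site, in 0 and in 1.1%. The 5 with TTGCNNAA were Ccl21a, Ccl21d, Ccl27a, Ccl27b and Cxcl13, none of them an ELR-type or MIP-type gene. The promoters of Ccl21a and Ccl21d are near-identical, and those of Ccl27a and Ccl27b share long near-identical stretches. Their matches are therefore not separate observations, and the share of 18.5% counts copied sequence more than once.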
